A study of Rattus norvegicus with 18 samples.

Results

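Amino acid and peptide transporters of the rat colon are described here in 10 genes: Slc3a2, Slc7a5, Slc7a11, Slc7a7, Slc7a1, Slc38a2, Slc1a5, Slc1a1, Slc6a6 and Slc15a1. Members on the array were the probe sets that the platform annotation maps to exactly 1 gene symbol, with that symbol among the 10. The rule found 14 of the 31042 probe sets tested, and each of the 10 genes had at least 1, of 14217 genes with a single-symbol probe set. Slc7a1 had 3 probe sets, Slc1a1 and Slc6a6 had 2 each, and the other genes had 1. A gene is represented by its brightest probe set, and every other one is given beside it.

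The study followed colitis that trinitrobenzene sulfonic acid (TNBS), a hapten given with alcohol to breach the mucosa, sets off in rats. Each TNBS group was 3 arrays, from rats given 1 enema of 10 mg TNBS in 50% ethanol on day 0 and sampled on day 2, 5, 7 or 14, and the controls were 6 healthy rats given a saline enema. The labels name no strain, genotype, sex or age. The 3 replicates of each day were chosen by their inflammatory markers (myeloperoxidase activity, weight loss and colon weight per length), so their spread is that of selected animals. No group given ethanol without TNBS was analysed here, so the hapten and its vehicle cannot be told apart. The series text names Trizol for the extraction, while the sample labels give Trizol for the 12 TNBS samples and, for the 6 controls, the array maker's manual. Extraction and treatment therefore cannot be told apart if those entries mean different procedures.

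Amino acid carriers move nutrients, signalling amino acids and the building blocks of glutathione across the cell membrane. Slc3a2 encodes the heavy chain (4F2hc, CD98) that brings several light chains of the Slc7 family to the surface, among them Slc7a5 (LAT1, large neutral amino acids), Slc7a11 (xCT, cystine in exchange for glutamate) and Slc7a7 (y+LAT1, basic amino acids). Slc7a1 (CAT1) carries arginine and lysine without that chain, Slc38a2 (SNAT2) and Slc1a5 (ASCT2) carry small neutral amino acids and glutamine, Slc1a1 (EAAC1) carries glutamate, aspartate and cysteine, Slc6a6 (TauT) carries taurine, and Slc15a1 (PEPT1) carries di- and tripeptides and is best known from the small intestine.

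The RNA came from full-thickness colon. In control colon the 10 enterocyte genes of a marker list lay between percentile 80.5 (Aqp8) and 99.9 (Car1) of all probe sets. The 4 measured small-intestinal genes of 6 lay at 93.5 (Fabp2), 46.4 (Apoa4), 35.1 (Alpi) and 28.1 (Fabp6). The deposited array medians were 5.03 to 5.08 in TNBS arrays and 4.27 to 4.30 in control arrays, a mean difference of 0.76 that was 0.29 at the 99th percentile. Levels against control are therefore given as log2 values after quantile normalization over all 18 arrays, which gives every array the same distribution, and directions are also given as deposited and after each array was centred on its median. Comparisons between TNBS days use the deposited values. After quantile normalization the median change of all probe sets lay between -0.04 and -0.01 on the 4 days, against 0.54 to 0.59 as deposited and -0.22 to -0.17 after centring. Changes are log2 differences from limma with their standard errors, and called means a p under 0.05 once adjusted by Benjamini and Hochberg's method across the 31042 probe sets. All 4 comparisons with control share the same 6 control arrays. Precision is limited by the few arrays, and the p-values measure only the spread between them.

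The transporters called higher in inflamed colon by their brightest probe set were Slc7a11, Slc7a7, Slc6a6, Slc15a1 and, on day 2, the heavy chain Slc3a2. The second Slc6a6 probe set was called lower on day 2. The Slc3a2 call was lost in 15 of 18 repeats with 1 array left out. Of the 10 genes, 3 were called higher on day 2 (9.13% of all probe sets were), 4 on day 5 (12.1%), 3 on day 7 (12.4%) and 1 on day 14 (5.61%). No representative probe set was called lower on any day, where 9.85%, 14.4%, 15.9% and 6.09% of all probe sets were called lower on days 2, 5, 7 and 14. Their median changes were 0.41, 0.30, 0.38 and 0.16 on days 2, 5, 7 and 14. As deposited, 8, 8, 9 and 9 of the 10 were called higher, where 82.8%, 80.9%, 80.1% and 86.7% of all probe sets were, and none lower, where 0.525%, 1.1%, 1.07% and 0.135% were. After centring, 1, 3, 4 and 2 were called higher, where 8.19%, 10.6%, 11.1% and 7.33% of all probe sets were, and 1, 1, 0 and 0 lower, where 31.3%, 35.7%, 39.7% and 28.2% were. Calls that held as quantile-normalized, as deposited and after centring numbered 1, 3, 3 and 1, all higher. The share of all probe sets with such calls was not counted, so these numbers have no baseline. That share cannot exceed the smallest of the 3 shares called higher on the day.

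**Figure D1:**
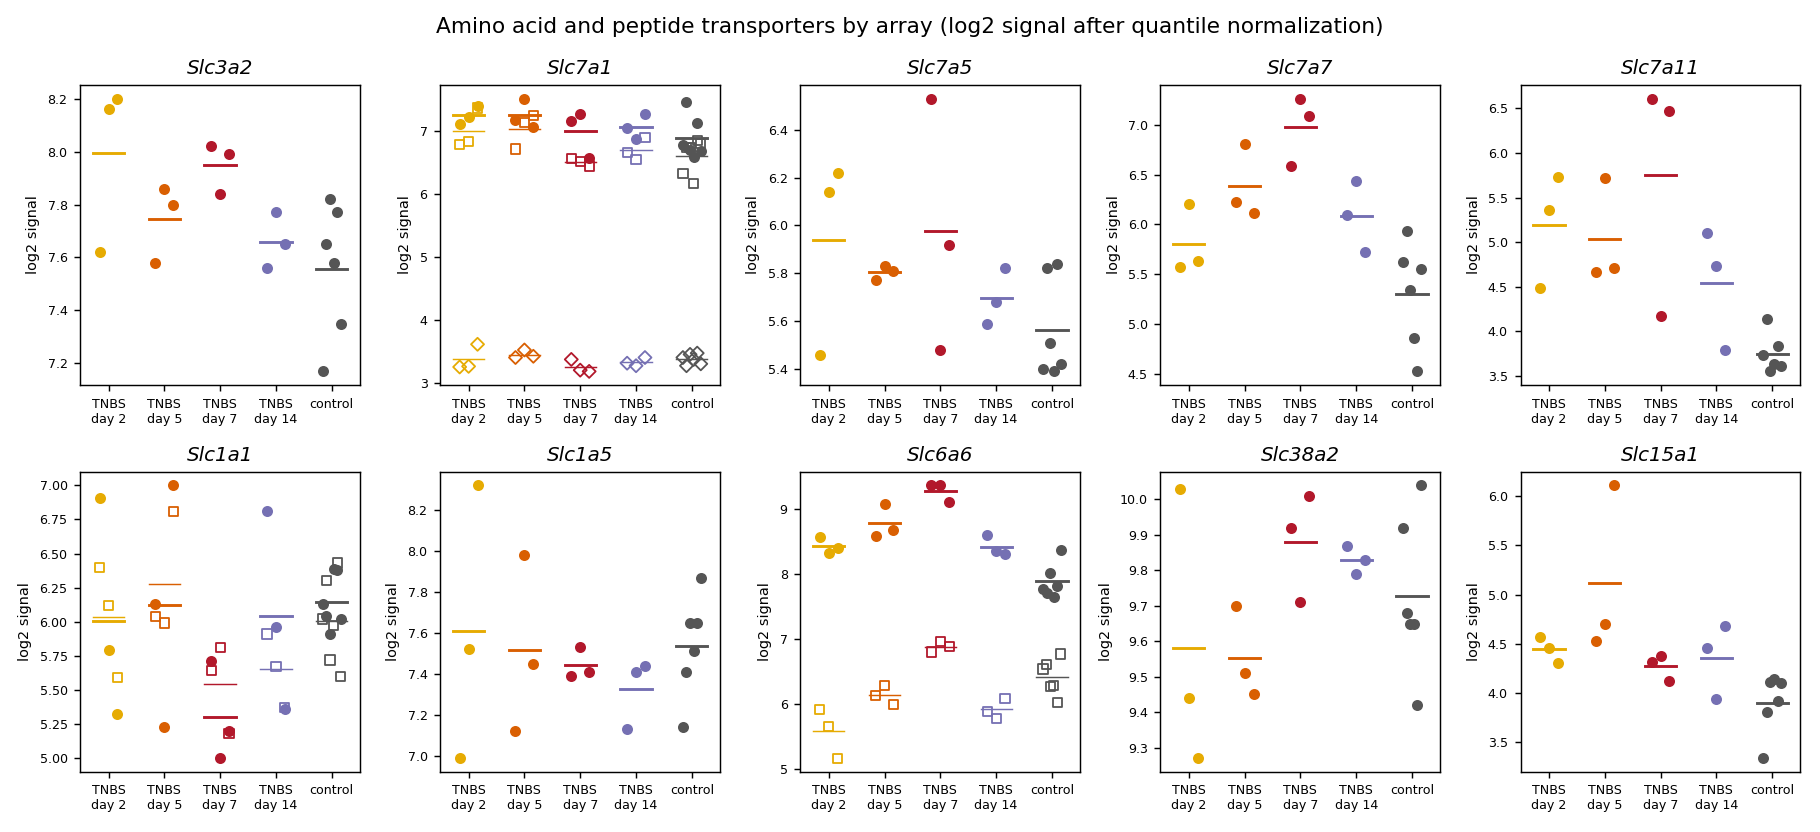
Log2 signal after quantile normalization of the 10 transporters, 1 panel a gene, with TNBS days 2, 5, 7 and 14 and then control on the horizontal axis. Each point is 1 array and each line a group mean; filled circles are the brightest probe set and open symbols the others. Slc7a7, Slc7a11 and Slc6a6 stood highest on day 7, and 1 day 5 array of Slc15a1 reached 6.11.

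Slc7a11, the light chain of the cystine and glutamate exchanger, is one of the 3 carriers called on both day 5 and day 7, and for that reason the promoters of the 3 are shown. Its promoter in RefSeq (GRCr8, chr2:136668265-136668514, minus strand) is printed 5′ to 3′ on the gene's strand, the 250 bases before the annotated start.

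Slc7a11: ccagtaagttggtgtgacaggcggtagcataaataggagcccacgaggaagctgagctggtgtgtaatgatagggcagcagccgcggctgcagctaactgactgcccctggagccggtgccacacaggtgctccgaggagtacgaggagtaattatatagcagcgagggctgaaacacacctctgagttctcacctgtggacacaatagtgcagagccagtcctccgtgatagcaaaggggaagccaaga

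Windows of this kind were searched on both strands for TGACNNNGC, the core of the antioxidant response element, and for TGATGNAA, the composite element of C/EBP and ATF factors. Capitals in the promoters below mark such a match, and the Slc7a11 window holds neither. Of 33469 windows of the same length, 10.1% hold the first motif and 3.4% the second. Of the 8 members with a promoter in the table, 6 hold a match: Slc6a6, Slc7a7, Slc3a2, Slc38a2 and Slc15a1 the first motif and Slc7a1 both. The 8 members have 9 windows, as Slc3a2 has another window with 0 matches, whereas the shares above are per window. A match is a string of letters and no evidence of binding.

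By array, Slc7a11 (probe set 1378133_at) measured 4.49, 5.36 and 5.73 in the day 2 arrays and 4.66, 5.72 and 4.71 in the day 5 arrays. Day 7 arrays measured 6.61, 4.17 and 6.47 and day 14 arrays 5.10, 4.73 and 3.79, against a lowest of 3.55, a median of 3.68 and a highest of 4.14 in control. All 9 arrays of days 2, 5 and 7 lay above every control array, the second of day 7 by the narrowest margin, and day 14 overlapped control. The change was 1.44 ± 0.45 (SE, 3 arrays against 6) on day 2, with limma's adjusted p = 0.0358. It was 1.28 ± 0.45 on day 5 (limma adjusted p = 0.0472) and 2.00 ± 0.45 on day 7 (limma adjusted p = 0.00382), a 4.0-fold difference. On day 14 the change was 0.79 ± 0.45 and was not called (limma adjusted p = 0.287). The sign was positive on every scale, but after centring the day 5 difference was not called (limma adjusted p = 0.0555). Without the second day 5 array the quantile-normalized day 5 adjusted p became 0.235, and without the third day 2 array the day 2 value became 0.174. Over the 18 repeats with 1 array left out, the day 2 call was lost in 6, the day 5 call in 10 and the day 7 call in none.

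The probe set is dim in healthy colon. Its mean level stood at percentile 25.8 of all probe sets in control, and at 55.4, 52.9, 63.1 and 46 on days 2, 5, 7 and 14. In bulk tissue, more cells that hold a transcript and more transcript per cell cannot be told apart, and neither can their opposites.

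Slc7a7, the light chain of the exchanger for basic and neutral amino acids at the basolateral membrane, has a promoter in RefSeq (GRCr8, chr15:31835684-31835933, minus strand) with 1 TGACNNNGC match, whose first base lies 192 bases before the start.

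Slc7a7: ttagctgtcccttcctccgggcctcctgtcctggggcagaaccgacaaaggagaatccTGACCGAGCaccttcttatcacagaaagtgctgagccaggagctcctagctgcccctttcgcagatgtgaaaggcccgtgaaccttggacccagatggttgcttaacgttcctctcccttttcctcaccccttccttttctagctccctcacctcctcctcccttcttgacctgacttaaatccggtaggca

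Across arrays, Slc7a7 (1387808_at) measured 5.57, 6.21 and 5.63 in the day 2 arrays and 6.23, 6.81 and 6.11 in the day 5 arrays. It measured 6.59, 7.26 and 7.09 in the day 7 arrays and 6.09, 6.44 and 5.72 in the day 14 arrays, against a lowest of 4.53, a median of 5.44 and a highest of 5.93 in control. Every array of days 5 and 7 lay above every control array, while days 2 and 14 overlapped control. The rise was 1.08 ± 0.28 on day 5 (limma adjusted p = 0.00963) and 1.67 ± 0.28 on day 7 (limma adjusted p = 0.000425), 2.11-fold and 3.19-fold. Both were called on all 3 scales. On day 2 it was 0.50 ± 0.28 (limma adjusted p = 0.233) and on day 14 it was 0.77 ± 0.28 (limma adjusted p = 0.0841), which after centring was 0.89 and called (limma adjusted p = 0.0148). Without the second control array it was called too (0.90, limma adjusted p = 0.0429). Without the second day 5 array the day 5 adjusted p became 0.0719, and the day 7 call was kept in each repeat with 1 array left out.

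Slc6a6, the sodium- and chloride-dependent taurine carrier, has a RefSeq promoter (GRCr8, chr4:125752252-125752501, plus strand) with 1 TGACNNNGC match on the opposite strand, so that the capitals read its reverse complement. The match begins 101 bases before the start.

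Slc6a6: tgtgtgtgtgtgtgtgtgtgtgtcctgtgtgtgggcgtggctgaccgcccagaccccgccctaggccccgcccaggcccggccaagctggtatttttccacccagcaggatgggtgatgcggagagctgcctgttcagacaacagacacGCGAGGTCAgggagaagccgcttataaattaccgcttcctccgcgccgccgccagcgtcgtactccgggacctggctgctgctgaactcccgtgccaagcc

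Its brighter probe set, 1374531_at, measured 8.57, 8.32 and 8.40 in the day 2 arrays and 8.58, 9.08 and 8.67 in the day 5 arrays. The day 7 arrays measured 9.36, 9.36 and 9.10 and the day 14 arrays 8.60, 8.35 and 8.30, against a lowest of 7.65, a median of 7.79 and a highest of 8.36 in control. Days 5 and 7 lay wholly above control, while the highest control array overlapped days 2 and 14. Slc6a6 rose on each day on this probe set, by 0.54 ± 0.15 on day 2 (limma adjusted p = 0.0182), 0.89 ± 0.15 on day 5 (limma adjusted p = 0.00053), 1.39 ± 0.15 on day 7 (limma adjusted p = 1.18e-05) and 0.53 ± 0.15 on day 14 (limma adjusted p = 0.0291). After centring the day 2 change was 0.34 and not called (limma adjusted p = 0.0811). Leaving out the first day 2 array ended the day 2 call (limma adjusted p = 0.0627), as did leaving out the third (limma adjusted p = 0.0569). Leaving out the first day 14 array took the day 14 value to an adjusted p of 0.133, the highest of 6 repeats that lost this call.

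The second probe set of Slc6a6, 1368778_at, followed another course against control. It measured 5.92, 5.66 and 5.17 in the day 2 arrays, 6.13, 6.29 and 5.99 in the day 5 arrays, 6.80, 6.96 and 6.88 in the day 7 arrays and 5.89, 5.78 and 6.09 in the day 14 arrays. In control its lowest was 6.02, its median 6.41 and its highest 6.77. The day 2 arrays lay wholly below control and the day 7 arrays wholly above. On day 2 the change was -0.83 ± 0.16 (limma adjusted p = 0.0027), the opposite call to the brighter probe set, and after centring it was -0.76 and called (limma adjusted p = 0.00352). As deposited it was 0.00 (limma adjusted p = 0.985). The quantile-normalized call was kept in every repeat with 1 array left out (adjusted p of up to 0.0255). On day 7 this probe set rose by 0.46 ± 0.16 (limma adjusted p = 0.0448), positive on all 3 scales, a call lost in 11 of the 18 repeats with 1 array left out (adjusted p of up to 0.131). On day 5 it differed by -0.28 ± 0.16 and on day 14 by -0.50 ± 0.16, neither called, and both were positive as deposited, at 0.56 and 0.38. The day 14 change was called lower in 3 of the 18 repeats (adjusted p of 0.0287 at the lowest). The 2 probe sets thus differ on whether Slc6a6 was above control on days 2, 5 and 14, and each was above control on day 7.

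Among the TNBS days, which need no common scale with the controls, both probe sets of Slc6a6 stood highest on day 7. The tests between days still took their variance from the fit to all 18 arrays, controls included. As deposited, 1374531_at measured 8.89, 8.56 and 8.51 in the day 14 arrays, against 9.51, 9.44 and 9.30 in the day 7 arrays. The other, 1368778_at, measured 6.29, 6.07 and 6.35 in the day 14 arrays, against 7.07, 7.14 and 7.20 in the day 7 arrays. Neither pair of groups overlapped. Slc6a6 fell by 0.76 ± 0.18 (limma adjusted p = 0.0226) and by 0.90 ± 0.20 (limma adjusted p = 0.0192) on day 14 against day 7, negative on all 3 scales. It was the only 1 of the 10 genes called lower there, where 3.08% of all probe sets were, and none was called higher, where 1.42% were. It was also the only gene called by the F test across the 4 days, where 2.34% of all probe sets were called (limma adjusted p = 0.0447, and 0.014 on the second probe set). Leaving out the first day 7 array ended the day 14 call on both probe sets (limma adjusted p = 0.102 and 0.0623), as did leaving out the second or the third day 14 array. The F test call of the brighter probe set was lost in 12 of the 18 repeats with 1 array left out. Its limma adjusted p reached 0.145. Among these were the repeats without control array 1, 2, 3 or 5 (limma adjusted p = 0.0607, 0.0532, 0.0636 and 0.062). The F test call of the second probe set was lost without the third day 7 array (limma adjusted p = 0.0583).

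**Figure D2:**
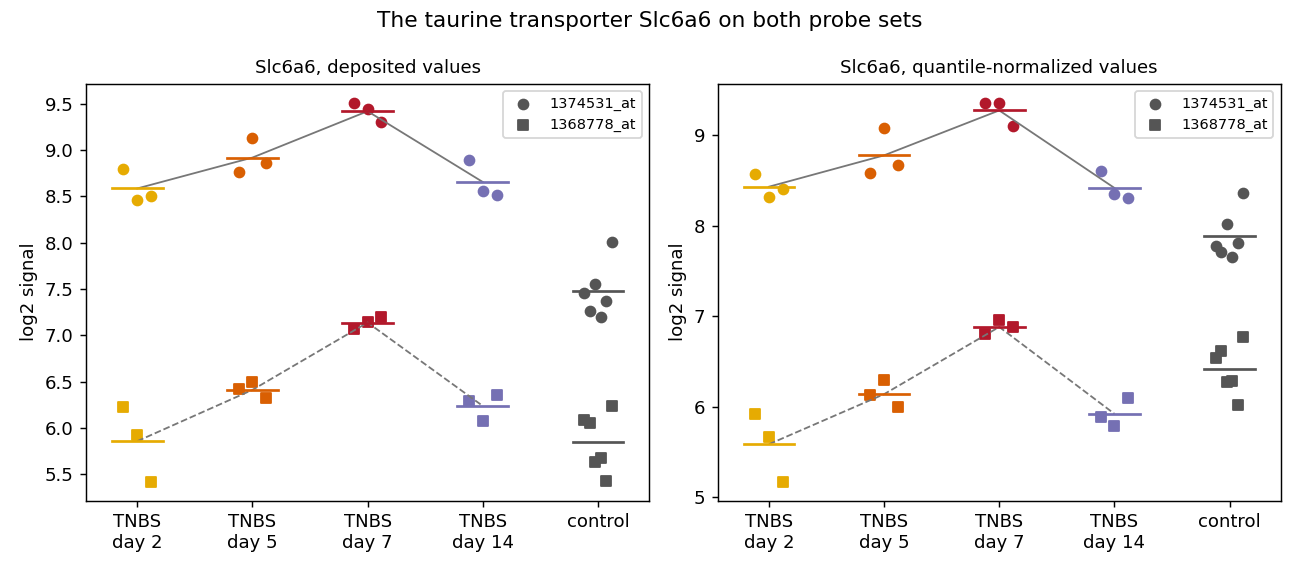
Log2 signal of the 2 Slc6a6 probe sets by array, as deposited on the left and after quantile normalization on the right, for TNBS days 2, 5, 7 and 14 and control. Points are arrays, coloured bars group means, and grey lines join the means of the TNBS days. Both probe sets peak on day 7 in either panel, while only the quantile-normalized panel places the second one below control on day 2.

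Slc3a2, the heavy chain, rose on day 2 by a small margin. Its probe set 1398771_at measured 7.62, 8.16 and 8.20 in the day 2 arrays, 7.58, 7.86 and 7.80 in the day 5 arrays, 8.02, 7.84 and 7.99 in the day 7 arrays and 7.56, 7.77 and 7.65 in the day 14 arrays. In control its lowest was 7.17, its median 7.62 and its highest 7.82. The first day 2 array lay among the controls and the other two above them, and day 7 lay wholly above control. The change was 0.44 ± 0.15 on day 2 (limma adjusted p = 0.0492), 0.19 ± 0.15 on day 5 (0.375), 0.39 ± 0.15 on day 7 (0.0575) and 0.10 ± 0.15 on day 14 (0.709). After centring the day 2 change was 0.30 and not called (limma adjusted p = 0.0757). The day 2 call was lost in 15 of the 18 repeats with 1 array left out, and had an adjusted p of 0.236 without the third day 2 array. The day 7 change was called in 3 of those repeats, with an adjusted p of 0.0301 at the lowest.

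Slc7a5, the light chain that carries leucine and other large neutral amino acids, was not called on any day. Its values on 1387280_a_at were 5.46, 6.14 and 6.22 in the day 2 arrays, 5.77, 5.83 and 5.81 in the day 5 arrays, 6.53, 5.48 and 5.92 in the day 7 arrays and 5.59, 5.68 and 5.82 in the day 14 arrays, against 5.39, 5.46 and 5.84 as the lowest, median and highest in control. Each day overlapped control, and 1 array stood low on day 2 and on day 7. The changes were 0.38 ± 0.20, 0.24 ± 0.20, 0.41 ± 0.20 and 0.13 ± 0.20 on days 2, 5, 7 and 14, with limma adjusted p of 0.195, 0.406, 0.134 and 0.72. Without the first day 2 array the day 2 change was 0.62 (limma adjusted p = 0.0376), and without the second day 7 array the day 7 change was 0.66 (limma adjusted p = 0.0236). After centring, day 7 was called at 0.51 (limma adjusted p = 0.0369).

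Slc15a1, the proton-coupled peptide carrier, was called on day 5. Its arrays (1369381_a_at) measured 4.57, 4.46 and 4.31 in the day 2 arrays, 4.53, 4.70 and 6.11 in the day 5 arrays, 4.32, 4.38 and 4.12 in the day 7 arrays and 4.46, 3.94 and 4.68 in the day 14 arrays. In control its lowest was 3.34, its median 4.01 and its highest 4.14. Days 2 and 5 lay wholly above control, and the third day 5 array alone exceeded 5. Slc15a1 rose by 1.21 ± 0.28 on day 5 (limma adjusted p = 0.00461), 2.31-fold, and the call held on all 3 scales and in every repeat with 1 array left out. Without the third day 5 array the change was 0.71 (limma adjusted p = 0.025). The probe set is dim, at percentile 30.7 of all probe sets in control and 54.8 on day 5. On days 2, 7 and 14 the changes were 0.54 ± 0.28, 0.37 ± 0.28 and 0.46 ± 0.28, with limma adjusted p of 0.186, 0.349 and 0.319, and that of day 2 was called without the third day 5 array (0.0454).

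The 5 carriers with no call on any day in their brightest probe set were Slc7a5, above, and Slc7a1, Slc38a2, Slc1a5 and Slc1a1. Slc7a1 (1368392_at), the arginine carrier, measured 7.12, 7.23 and 7.41 in the day 2 arrays, 7.18, 7.52 and 7.07 in the day 5 arrays, 7.17, 7.27 and 6.57 in the day 7 arrays and 7.06, 6.88 and 7.28 in the day 14 arrays, against 6.60, 6.75 and 7.46 as the lowest, median and highest in control. The groups overlapped on each day, and the changes ran between 0.11 ± 0.19 and 0.36 ± 0.19, with limma adjusted p of 0.179 or more, and without the second control array that of day 5 was called at 0.47 (limma adjusted p = 0.0488). Its second probe set, 1368391_at, gave 0.39 ± 0.17 on day 2, 0.43 ± 0.17 on day 5 and -0.09 ± 0.17 on day 7, none called. Its day 5 change was called after centring (0.45, limma adjusted p = 0.0306) and without the first day 5 array (0.59, limma adjusted p = 0.0316). The third, 1387167_at, stayed between 3.19 and 3.62 on all arrays, at percentile 11.2 of mean level. After centring it was called lower on days 2, 7 and 14, at -0.26, -0.42 and -0.34 (limma adjusted p = 0.0391, 0.00211 and 0.0122). As deposited it was called higher on the same days, so that its direction depended on the scale.

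Slc38a2 (1370286_at), the sodium-coupled carrier of small neutral amino acids, measured 10.03, 9.44 and 9.27 in the day 2 arrays, 9.70, 9.51 and 9.45 in the day 5 arrays, 9.92, 9.71 and 10.01 in the day 7 arrays and 9.87, 9.79 and 9.83 in the day 14 arrays. In control its lowest was 9.42, its median 9.67 and its highest 10.04. The groups overlapped on each day. Its changes were -0.15 ± 0.15 and -0.17 ± 0.15 on days 2 and 5, with limma adjusted p of 0.54 and 0.444, and 0.15 and 0.10 on days 7 and 14. After centring they were -0.53 on day 2 and -0.55 on day 5, both called lower (limma adjusted p = 0.0199 and 0.0152), and as deposited they were 0.23 and 0.22, so that their direction depended on the scale.

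Slc1a5 (1371040_at), the glutamine carrier, measured 6.99, 7.52 and 8.32 in the day 2 arrays, 7.12, 7.98 and 7.45 in the day 5 arrays, 7.39, 7.53 and 7.41 in the day 7 arrays and 7.13, 7.41 and 7.44 in the day 14 arrays, against 7.14, 7.58 and 7.87 in control as the lowest, median and highest. Each group overlapped control, and its changes lay between -0.21 ± 0.23 and 0.07 ± 0.23, none called. The day 2 arrays spread over more than a log2 unit, from the first to the third. For Slc1a1 (1370367_at), the neuronal and epithelial glutamate carrier, the arrays measured 6.91, 5.79 and 5.32 in the day 2 arrays, 6.13, 5.23 and 7.00 in the day 5 arrays, 5.71, 5.00 and 5.20 in the day 7 arrays and 6.81, 5.96 and 5.36 in the day 14 arrays. In control its lowest was 5.91, its median 6.08 and its highest 6.39. The day 7 arrays lay wholly below control, with a change of -0.84 ± 0.38 that was not called (limma adjusted p = 0.11) and was 0.02 as deposited. The second Slc1a1 probe set, 1387932_at, differed by -0.46 ± 0.23 on day 7 (limma adjusted p = 0.152), with groups that overlapped.

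**Figure D3:**
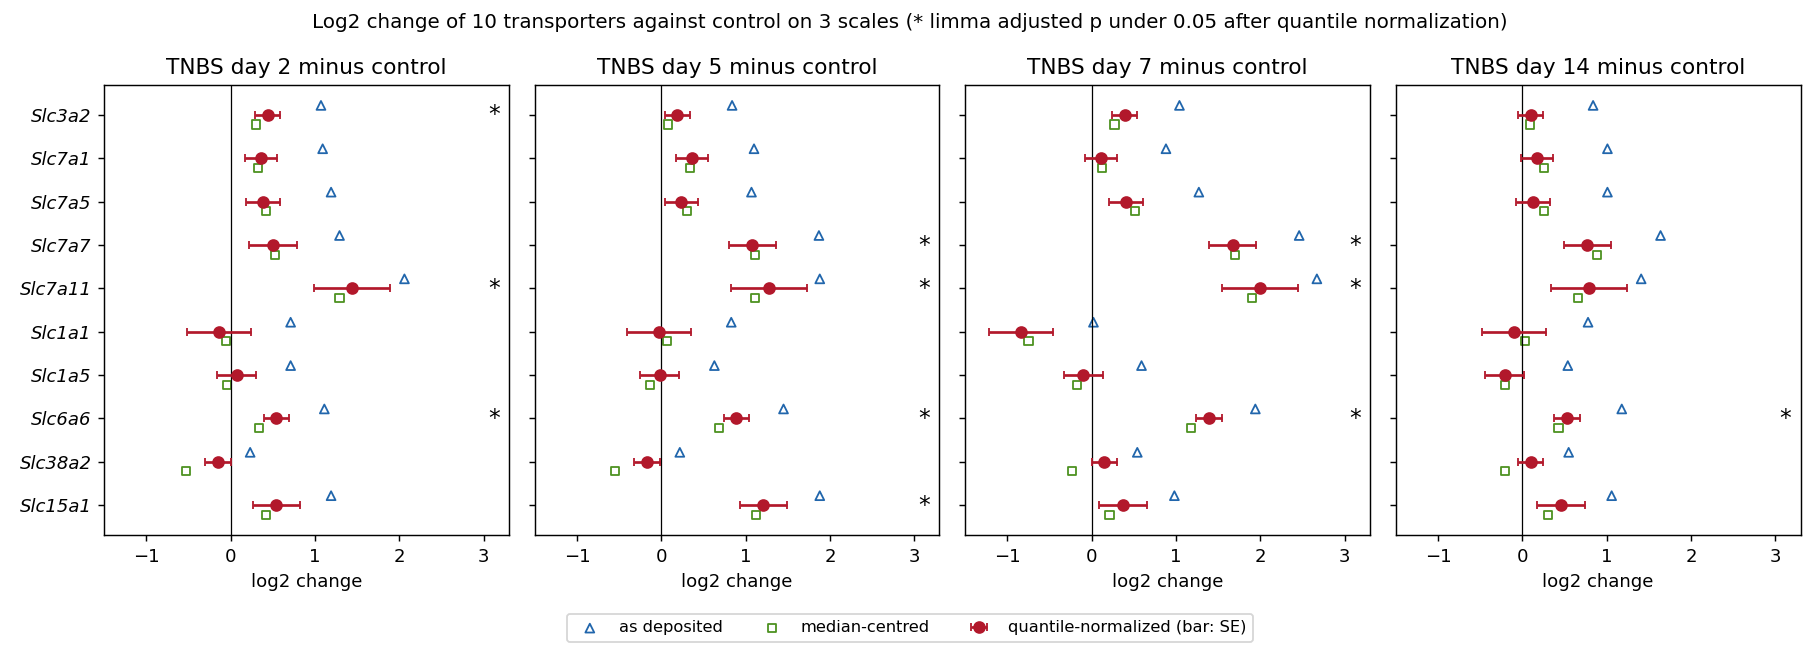
Log2 change of each transporter against control, 1 panel a day (days 2, 5, 7 and 14), with genes down the vertical axis. Filled circles are quantile-normalized values with their SE, triangles the deposited values and squares the median-centred values; a star marks a limma call after quantile normalization. The deposited values lie to the right of the others for all 10 genes, and Slc3a2, Slc7a1, Slc7a5, Slc7a7, Slc7a11, Slc6a6 and Slc15a1 lie right of 0 on every scale and day.

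By whether the arrays of a day overlapped control, 2 of the 10 genes were wholly higher on day 2 (9% of all probe sets were), 4 on day 5 (11.8%) and 4 on day 7 (11.8%), and none on day 14 (8.47%). Slc1a1 was wholly lower on day 7, where 15.6% of all probe sets were, and no gene was on days 2, 5 or 14, where 9.61%, 14.4% and 9.62% were. No member was called on day 5 against day 2, where 0.00966% of all probe sets were called higher and 0% lower. None was called on day 7 against day 5 (0.0161% and 0.00322%) or on day 14 against day 2 (0.00322% and 0.0161%). On day 7 against day 5, Slc6a6 was wholly higher (3.78% of all probe sets were) and Slc15a1 wholly lower (5.41%). No gene stood wholly apart on day 5 against day 2 (4.77% of all probe sets higher and 6.25% lower) or on day 14 against day 2 (5.41% and 5.54%). On day 14 against day 7 the wholly lower genes were Slc6a6 and Slc7a7 (9.31% of all probe sets were), and none was wholly higher (15.2%). Slc7a7 differed there by -0.83 ± 0.30 and was not called (limma adjusted p = 0.142). For Slc7a11 the same change was -1.26 ± 0.53 (limma adjusted p = 0.205), and without the second day 7 array it was -2.07 (limma adjusted p = 0.00716).

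The macrophage, neutrophil, endothelial, fibroblast and smooth muscle marker means all had their highest group medians on day 7. So did Slc7a7, Slc7a11 and Slc6a6, whereas Slc15a1 had its highest on day 5 and Slc3a2 on day 2. Of 6 macrophage genes, 5, 5, 6 and 0 were called higher on days 2, 5, 7 and 14, where 9.13%, 12.1%, 12.4% and 5.61% of all probe sets were. The mean log2 level of the macrophage genes by array ran from 6.71 to 8.11, 7.82 to 8.77, 8.49 to 8.63 and 5.96 to 6.68, against 5.85 to 5.91 in control. Of 5 measured neutrophil genes of 6, 4, 5, 5 and 2 were called higher, and their mean ran from 5.80 to 8.02, 7.53 to 8.81, 8.08 to 9.44 and 4.68 to 5.41, against 3.63 to 3.91 in control. In control the 6 macrophage genes lay between percentile 43.6 (Fcgr3a) and 90.3 (Cd14) of all probe sets, and the 5 neutrophil genes between 9.11 (Csf3r) and 55.6 (S100a9). Of 5 measured endothelial genes of 6, 4 were called higher on day 5 and 4 on day 7, and of 6 fibroblast genes 4 and 5. Their part in the values of Slc7a7, Slc7a11 and Slc6a6 was not tested.

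Epithelial markers varied among the TNBS arrays. The mean of 10 enterocyte genes ran from 9.74 to 10.88 on day 2, 9.77 to 10.77 on day 5, 9.45 to 10.37 on day 7 and 10.87 to 10.99 on day 14, against 10.40 to 10.94 in control. Of them, 2, 1, 2 and 0 were called lower, where 9.85%, 14.4%, 15.9% and 6.09% of all probe sets were. On the day 5 array with the highest Slc15a1, the enterocyte mean was 10.15, and the mean of 4 measured small-intestinal genes of 6 was 4.38, the lowest of all 18 arrays. The small-intestinal mean moves mostly with Fabp2, which ran from 5.30 to 9.25 on day 5, whereas Alpi, Fabp6 and Apoa4 lay between 3.87 and 4.33. After quantile normalization the third day 2 array was the highest of its day for Slc3a2, Slc7a5, Slc7a11, Slc7a1 and Slc1a5. It was the lowest for Slc1a1, Slc38a2 and Slc15a1. The same array had the highest T cell mean (7.83) and cell division mean (8.07) of all arrays. Its B and plasma cell mean was 8.48, against 5.28 to 8.08 in control. The part of these cells in the transporters' values was not tested.

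**Figure D4:**
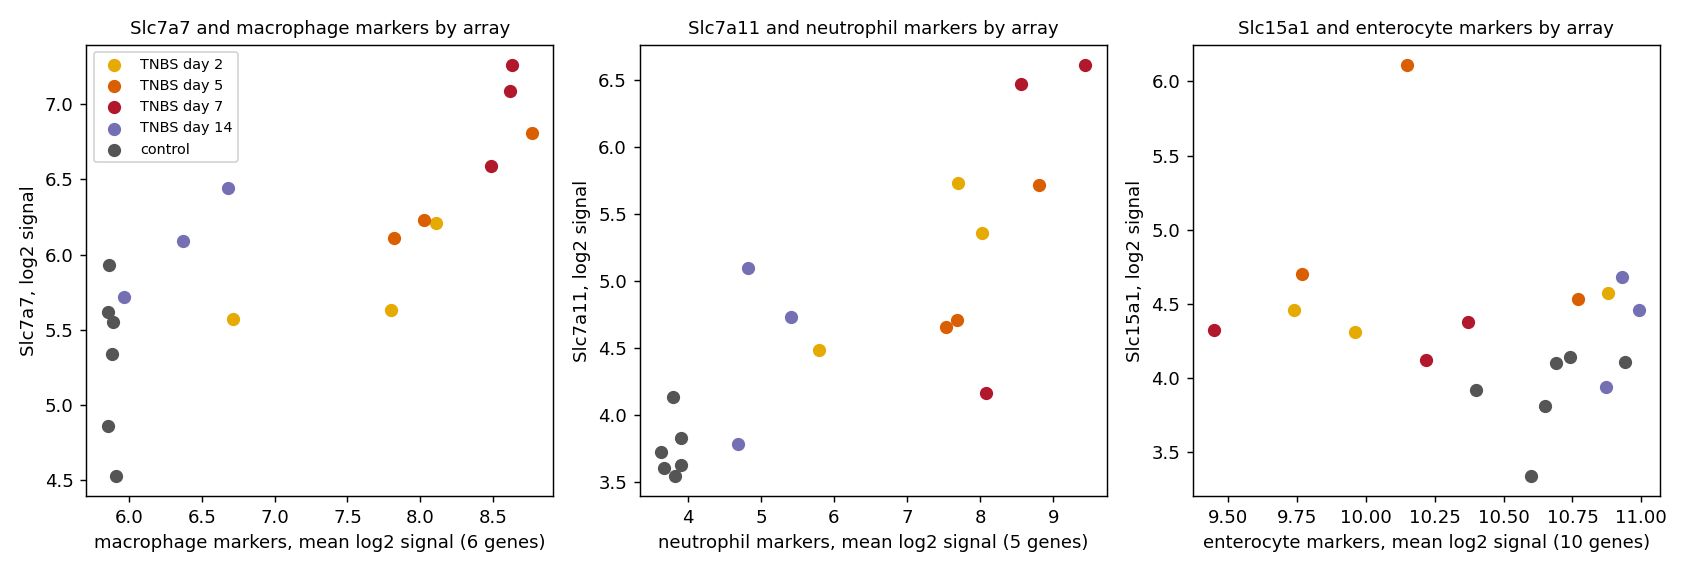
Scatter plots of a transporter (vertical axis, log2 signal after quantile normalization) and the mean log2 signal of a marker list (horizontal axis), 1 point an array, coloured by group. Slc7a7 is set against macrophage markers, Slc7a11 against neutrophil markers and Slc15a1 against enterocyte markers; the second day 7 array has a neutrophil mean of 8.08 but a Slc7a11 level of 4.17.

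Other carriers and pathway genes were read from lists chosen for this tissue, by counts over the representative probe sets. Each list count below stands beside the share of all probe sets called on days 2, 5, 7 and 14. That share was 9.13%, 12.1%, 12.4% and 5.61% for higher, and 9.85%, 14.4%, 15.9% and 6.09% for lower. Of 25 measured amino acid and peptide carriers of 28 listed, 4, 5, 8 and 1 were called higher on days 2, 5, 7 and 14, and 1 was called lower, on day 7. Slc15a3, a peptide and histidine carrier of endolysosomes, averaged 6.98 ± 0.61 on day 7 (SD, n = 3) and 4.33 ± 0.46 in control (SD, n = 6) and rose by 2.65 ± 0.44 (limma adjusted p = 0.000446). Slc7a8 (LAT2), another partner of Slc3a2, rose by 0.94 ± 0.20 on day 2 (limma adjusted p = 0.00436), and Slc7a9, the light chain of the cystine carrier of kidney and gut brush borders, by 0.75 ± 0.14 on day 5 (limma adjusted p = 0.00105). The Slc7a9 probe set is dim, with a mean of 4.23 ± 0.36 on day 5 (SD, n = 3) and 3.48 ± 0.20 in control (SD, n = 6).

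Genes of the response to amino acid shortage and stress were called higher in 6, 8, 8 and 2 of 20 on days 2, 5, 7 and 14, and lower in 1, 1, 0 and 1. Cebpb, a transcription factor of inflammation and of this response, rose by 3.02 ± 0.33 on day 7 (limma adjusted p = 1.42e-05) and on day 14 fell by 2.75 ± 0.36 against day 7 (limma adjusted p = 0.000699). Ddit3 (CHOP), a stress-induced transcription factor, rose by 2.25 ± 0.37 on day 7 (limma adjusted p = 0.000399) and was also called lower on day 14 against day 7. Nupr1, a stress-response regulator of chromatin, fell by 1.20 ± 0.27 on day 5 (limma adjusted p = 0.0042), on all 3 scales. These are named by the smallest p of the F test, which is not independent of the day 14 against day 7 change. The list was mixed. Aars1 and Ddit4 were called higher than control on each day, while Atf4, Trib3, Chac1, Asns, Psat1 and Atf3 were called on none. Whether amino acids were short in this tissue was not tested.

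Of 15 measured glutathione and Nrf2 genes of 16, 4, 6, 5 and 1 were called higher and 1, 1, 1 and 0 lower. Hmox1, which degrades haem, rose by 3.47 ± 0.34 on day 5 (limma adjusted p = 7.8e-06). Gpx2, the gastrointestinal glutathione peroxidase, rose by 0.97 ± 0.23 on day 2 and 1.06 ± 0.23 on day 5 (limma adjusted p = 0.00768 and 0.00286) and stood at -0.01 ± 0.23 on day 7. Gsr, which regenerates reduced glutathione, differed by -0.58 ± 0.22 on day 7 and was not called (limma adjusted p = 0.0575). Of 8 taurine and cysteine genes, none was called higher while 0, 2, 1 and 0 were called lower on days 2, 5, 7 and 14. Those of day 5 were Cbs, by -1.29 ± 0.26 (limma adjusted p = 0.00191), and Cth, by -1.84 ± 0.60 (limma adjusted p = 0.0313), the enzymes that lead from homocysteine to cysteine. Cbs was also the gene called lower on day 7, by -0.73 ± 0.26 (limma adjusted p = 0.0466). As deposited none of these was called, and the Cbs change on day 7 was positive. Got1, the cytosolic aspartate aminotransferase, was not called on any day after quantile normalization.

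Over the 12 TNBS arrays as deposited, the pattern most like that of Slc6a6 was that of Igf2r (Pearson's r = 0.955), followed by Golm2 (0.902). The nearest genes were Tcf4 (0.927) and Mfap4 (0.917) for Slc7a7, Cstpp1 (0.929) and Snx8 (0.925) for Slc7a11, Rabgap1 (0.93) and Dio1 (0.904) for Slc15a1, and Ifitm2 (0.906) and Tcea2 (0.904) for Slc3a2. These are descriptions over arrays that share their days and were picked as the highest of all single-symbol genes.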

How the data were processed

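RNA of full-thickness rat colon was measured on an Affymetrix rat genome array in 18 samples. The authors deposited normalized values, made per the labels with the affyPLM package of Bioconductor. Neither its version nor the background method or log base is stated in what was used here. The deposited values, which reach no higher than log2 signals do, were taken as log2. They hold 31099 probe sets, and 0 columns of other samples. After 57 array control probe sets were left out, 31042 were tested, of which 20826 carry 1 gene symbol in the platform annotation, 436 several and 9780 none listed; 20758 of the first kind matched the RefSeq table by gene ID.

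Groups were TNBS days 2, 5, 7 and 14 (3 arrays each) and control (6 arrays). limma 3.58.1 (R 4.3.3) fitted 1 coefficient per group to all 18 arrays with empirical Bayes moderation, two-sided, with Benjamini-Hochberg adjustment. Values against control were quantile-normalized first, and values between days were used as deposited. The fit was tested on simulated data. Alternatives were the other scales, median centring, leaving out the dimmest 50% of probe sets, a trended and robust prior, array weights, a replicate block, and leaving out each array.

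A gene with several probe sets is represented by the one whose mean over all arrays was highest. From each pathway list the 3 genes with the smallest F test p among the TNBS days are named, and for each member the 2 genes with the highest r were found. The members and lists were chosen with earlier results of these data known. Promoters of 8 of the 10 genes came from RefSeq (GRCr8); Slc1a1 and Slc1a5 had no entry in the table used here. Python 3.11.15, pandas 2.3.3 and matplotlib 3.10.9 made the descriptions and plots.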

Additional observations from a re-analysis of the deposited data

Results flagged for a closer look

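The taurine carrier Slc6a6 differed between days 14 and 7 on both of its probe sets, by a test of that difference itself. The change on 1374531_at was -0.76 on day 14 against day 7, and that on 1368778_at was -0.90. Both probe sets were lower in each of the 3 day 14 arrays than in any day 7 array. Against control the same probe sets had changes of 0.53 and -0.50 on day 14 and of 1.39 and 0.46 on day 7, all after quantile normalization, so that they differ in sign on day 14. Macrophage and neutrophil marker means were also lower on day 14, at 5.96 to 6.68 and 4.68 to 5.41, against 8.49 to 8.63 and 8.08 to 9.44 on day 7. Endothelial and fibroblast means were lower too, at 5.46 to 5.99 and 9.10 to 9.94, against 6.35 to 7.78 and 10.54 to 10.69. The part of these cell types in the change was not tested.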

How the results depend on the processing

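As deposited, the members called higher against control numbered 8, 8, 9 and 9 on days 2, 5, 7 and 14. Of all probe sets, 82.8%, 80.9%, 80.1% and 86.7% were. All 18 member values against control that were negative after quantile normalization turned positive. The 9 of these that passed the threshold on either scale were Slc7a1 on 1387167_at on days 2, 7 and 14 (0.50, 0.34 and 0.41) and on 1368391_at on day 7 (0.73), Slc1a5 on days 5, 7 and 14 (0.63, 0.59 and 0.54), and Slc6a6 on 1368778_at on days 2 and 5 (0.00 and 0.56). After median centring 1 member was higher and 1 lower on day 2 (8.19% and 31.3% of all probe sets). On day 5, 1 was lower (35.7%), and on day 14, 2 were higher (7.33%). Without the dimmest 50% of probe sets 2 were higher on day 5, where 17.3% of all probe sets were, and Slc7a11 and Slc15a1 were not tested. With array weights 5 were higher and 1 lower on day 7 (15.4% and 21% of all probe sets), 2 were higher on day 14 (8.95%), and 2 were lower on day 14 against day 7 (4.95%). With the trended and robust prior each count stayed within 1.5 times. The cause of these moves was not tested. The deposited values hold the offset of the array medians, and the filter tested fewer probe sets. Leaving out 1 array in turn gave 0 to 3 members higher on day 2, 2 to 5 on day 5, 3 to 4 on day 7 and 0 to 1 on day 14. It gave 0 to 2 lower on day 14 against day 7, and 0 to 1 in the F test. With all arrays, 9.13%, 12.1%, 12.4% and 5.61% of all probe sets were called higher on these days. On day 14 against day 7, 3.08% were called lower, and 2.34% by the F test. These shares also changed with the array left out, to 7.68% on day 2 without the fourth control array. The replicate numbers were not used to pair the arrays in the main fit. Deviations of same-numbered arrays correlated between -0.313 and 0.47 (median 0.07), and those of differently numbered arrays between -0.564 and 0.338 (median -0.018). A replicate block left 1 member higher on day 2 (5.94% of all probe sets) and 2 lower on day 14 against day 7 (1.87%). Dim probe sets such as Slc7a11 and Slc15a1 in control limit what can be read from their small values, and 3 arrays a day limit the rest.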
